A study of Mus musculus with 70 samples.

Results

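Oxidative phosphorylation subunits are the nuclear-encoded building blocks of the mitochondrial respiratory chain and the ATP synthase. Members were taken by symbol: every row named Ndufa, Ndufb, Ndufc, Ndufs or Ndufv plus a number, Sdha to Sdhd, Uqcr followed by letters or numbers, Cox4 to Cox8, or Atp5. That gave 84 of the 21863 rows, with 83 distinct symbols, since Atp5o is listed on 2 rows and the second of these is at 0 in every library. By role the rows fall into 7 core and 28 accessory subunits of complex I, 4 of complex II, 8 of complex III, 11 broadly expressed and 8 tissue-restricted or related subunits of complex IV, and 5 F1 and 13 Fo or stalk subunits of the ATP synthase. The subunits encoded by the mitochondrial genome are not among them and were followed as a separate list.

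The series holds 70 libraries of C57BL/6 mouse cells in 26 groups of 3 (18 groups) or 2 (8 groups). The genotypes carry doxycycline-inducible kinases: caMEK1 (a constitutively active MEK1, giving ERK activation, described as oncogene-induced senescence) and caMKK6 (a constitutively active MKK6, giving p38 activation, described as stress-induced senescence). Mouse embryonic fibroblasts (MEFs, taken at E13.5) were analysed on 2 µg/mL doxycycline (Dox) at days 2, 4 and 7 and without it at day 2, with 3 libraries in each group. There was no later culture without Dox, so time and Dox differ together at days 4 and 7. Male chimeric animals had cells of both colours, in which mCherry marks the cells that can switch on the kinase, called primary senescent cells, and GFP marks the cells around them. Both colours were sorted by flow cytometry from hepatocyte-enriched liver and from colonic crypt epithelium at day 7. Groups of each tissue were caMEK1 Dox mCherry and GFP, caMKK6 Dox mCherry and GFP, Control Dox mCherry and GFP (colours with no active kinase), and No Dox GFP of the 3 genotypes. The Dox groups of Control in both tissues, of caMKK6 in liver and of caMEK1 in colon have 2 libraries, and all others have 3. Dox was given in drinking water with 10 mg/mL sucrose, at 0.2 mg/mL to caMEK1 animals and at 2 mg/mL to both of the other genotypes, so kinase and dose cannot be told apart.

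In the respiratory chain, complex I oxidises NADH and complex II oxidises succinate, both pass electrons to coenzyme Q, complex III passes them on to cytochrome c, and complex IV gives them to oxygen. Complexes I, III and IV pump protons, and the ATP synthase uses the proton gradient to make ATP. Hepatocytes and colon epithelial cells are both rich in mitochondria, and several complex IV subunits come in isoforms that differ between tissues.

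Reads in genes ran from 10499019 to 17150052 in MEF, from 9096993 to 14297505 in liver and from 6358587 to 16647561 in colon libraries. The 4 inserted genes were read as a check of the labels, which not every library met. In MEF the active MEK1 was listed at 500.1, 459.6 and 645 FPKM (the authors' values: fragments per kilobase of exon, scaled to the size of the library) in caMEK1 cells at day 7 and at 1.94, 3.22 and 4.04 FPKM without Dox, while 5 of the 12 caMKK6 MEF libraries listed it at 10.96 to 16.5 FPKM. These 5 include No Dox replicates 2 and 3, part of the group against which every caMKK6 MEF change was taken. In liver the caMEK1 Dox mCherry libraries held only 14.1, 5.55 and 8.88 FPKM of MEK1 and 12.2, 4.24 and 6.59 FPKM of the mCherry reporter, against 169.7 and 902 FPKM of mCherry in caMKK6 Dox mCherry libraries. The Control Dox GFP liver libraries listed mCherry at 678 and 749.6 FPKM beside 70.2 and 72.1 FPKM of EGFP, against 4727 and 3985 FPKM of mCherry in Control Dox mCherry liver; the cause was not tested. Some GFP libraries of kinase animals listed the kinase too: MKK6 was at 1.51 and 30.9 FPKM in caMKK6 Dox GFP liver and at 116, 8.50 and 10.6 FPKM in caMKK6 Dox GFP colon, and MEK1 at 12.3 and 28.7 FPKM in caMEK1 Dox GFP colon. The colon mCherry libraries held 288 and 235 FPKM of MEK1 with caMEK1 and 2648, 1613 and 1214 FPKM of MKK6 with caMKK6. Sorted hepatocyte markers stood high in every liver group, with 9 genes summing to 72630.2 to 85513 FPKM in caMEK1 Dox GFP and 51434 to 61996 FPKM in caMEK1 No Dox GFP cells.

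Genes were tested with limma on log2(FPKM + 1) over all genes of a tissue, and a called member is one whose p, adjusted by Benjamini and Hochberg's method over those genes, was below 0.05. All fold changes below are on that log2(FPKM + 1) scale, which understates changes of low genes. Of the 84 rows, 77 could be tested in MEF, 77 in liver and 78 in colon. The rows never tested were the second Atp5o row and Cox4i2, Cox6a2, Cox7b2, Cox8b and Cox8c, isoforms known from lung, muscle, testis or heart, none of which passed 1.79 FPKM in any library. Atp5l was tested only in colon, and 84.8% of its 50-base words occur elsewhere among the transcripts, so its reads are uncertain.

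Promoter stretches of 4 members are shown because the members moved together in liver, below, and because each carries a motif known from nuclear genes of mitochondria. The liver values were used to choose them. For each motif, the member shown is the one with the largest fall in caMEK1 GFP cells among those with a match in the stretch, each member used once. Members with no match, such as Cox7a2 and Cox5a, fell there too, and a link between motif and fall was not tested. The search covered the RefSeq windows (GRCm38.p6) of 250 bases before to 50 bases after the start for 68 of the 83 symbols, on both strands, for NRF1 (GCGCA, any base, GCGC, read without a gap), the ETS factor GABPA (CCGGAAG), YY1 (AANATGGC) and the estrogen-related receptors, ERR (AAGGTCA). NRF1 letters were present in 17 of the 68 members (25%), against 11.9% of the 8332 genes tested in liver that have a window and 5.19% of all 27025 genes with one. The ETS letters were in 17 members (25%), against 20.8% of genes tested in liver and 9.93% of all genes, so the members lay near the genes tested. YY1 letters were in 17 members (25%), against 10.5% of genes tested in liver and 6.96% of all genes, and ERR letters in 8 (11.8%), against 4.21% and 5.38% of the same sets. At least 1 of the 4 was found in 45 members (66.2%), against 39.4% of genes tested in liver and 23.9% of all genes. A match is a string of letters and not a measured binding site. Each stretch below is the 120 bases ending just before the start, written 5′ to 3′ on the gene's own strand, and the capitals mark every match of the 4 motifs or their reverse complements.
Sdha (3 NRF1 matches, chr13:74350241-74350360, minus strand): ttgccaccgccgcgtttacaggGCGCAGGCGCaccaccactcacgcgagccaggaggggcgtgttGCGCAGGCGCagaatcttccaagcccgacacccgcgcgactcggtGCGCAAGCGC
Sdhd (1 NRF1 match, then 1 ETS match, chr9:50603850-50603969, minus strand): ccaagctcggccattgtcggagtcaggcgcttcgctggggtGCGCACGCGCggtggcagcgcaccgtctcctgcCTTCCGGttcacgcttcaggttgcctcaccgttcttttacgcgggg
Ndufb5 (1 YY1 match, chr3:32736943-32737062, plus strand): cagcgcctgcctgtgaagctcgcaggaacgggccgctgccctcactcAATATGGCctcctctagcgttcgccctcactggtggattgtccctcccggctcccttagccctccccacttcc
Atp5g3 (1 ERR match, chr2:73911327-73911446, minus strand): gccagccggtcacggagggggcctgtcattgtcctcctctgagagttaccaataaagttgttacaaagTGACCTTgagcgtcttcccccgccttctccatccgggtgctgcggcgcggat

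Without Dox, the members formed a steep ladder of levels in each tissue. In liver GFP cells (9 libraries, FPKM as mean ± SD) the F1 subunits Atp5a1 at 305 ± 43.9 FPKM and Atp5b at 267 ± 29.2 FPKM led, followed by the complex IV subunits Cox6a1 at 245 ± 42.9 FPKM and Cox6b1 at 231 ± 41.7 FPKM. These neighbours lay within about 1 SD of each other. In colon (9 libraries) Cox6a1 at 569 ± 52.7 FPKM, Atp5a1 at 514 ± 47.1 FPKM and Cox8a at 492 ± 29.4 FPKM stood highest. In MEF (6 libraries) Atp5b at 402 ± 6.18 FPKM stood above Cox4i1 at 286 ± 35.8 FPKM, a gap wider than either SD. Of the 3 genes for the c-ring of the ATP synthase, Atp5g3 was highest in every tissue, at 96.9 ± 16.2 FPKM in liver, 129.7 ± 26.3 FPKM in colon and 135 ± 11.5 FPKM in MEF, while Atp5g1 and Atp5g2 stayed between 5.49 and 19.6 FPKM on average.

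Liver was lower than colon for most subunits in FPKM. In untreated GFP cells, 70 of 77 tested members were lower and 2 higher in liver than in colon, where 73.8% of all genes were lower and 16.7% higher. The median member stood at -0.68 (log2) and the median gene at -0.88, so the members lay above the median gene. The scaling sets this direction: after the medians of all genes were made equal, 61 members were higher and 5 lower in liver. Cox7a1, the isoform best known from heart and skeletal muscle, averaged 1.34 ± 0.674 FPKM in liver and 41.9 ± 7.95 FPKM in colon, with groups far apart (log2 fold change -4.24 ± 0.16, adjusted p = 2.72e-16 by limma). Cox7a2l, grouped here as related to complex IV, averaged 22.3 ± 3.03 FPKM in liver and 72.6 ± 13.4 FPKM in colon (log2 fold change -1.65 ± 0.10, adjusted p = 7.94e-13, limma). The 2 members higher in liver were Ndufa4, a complex IV subunit with a complex I name, at 104 ± 12.7 FPKM in liver and 70.5 ± 14.4 FPKM in colon (0.56 ± 0.11, adjusted p = 6.63e-05, limma), and Sdha, the flavoprotein of complex II, at 130.4 ± 13.05 FPKM in liver and 113 ± 11.2 FPKM in colon (0.21 ± 0.06, adjusted p = 0.00181, limma). The libraries of the 2 tissues overlapped for both.

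**Figure D1:**
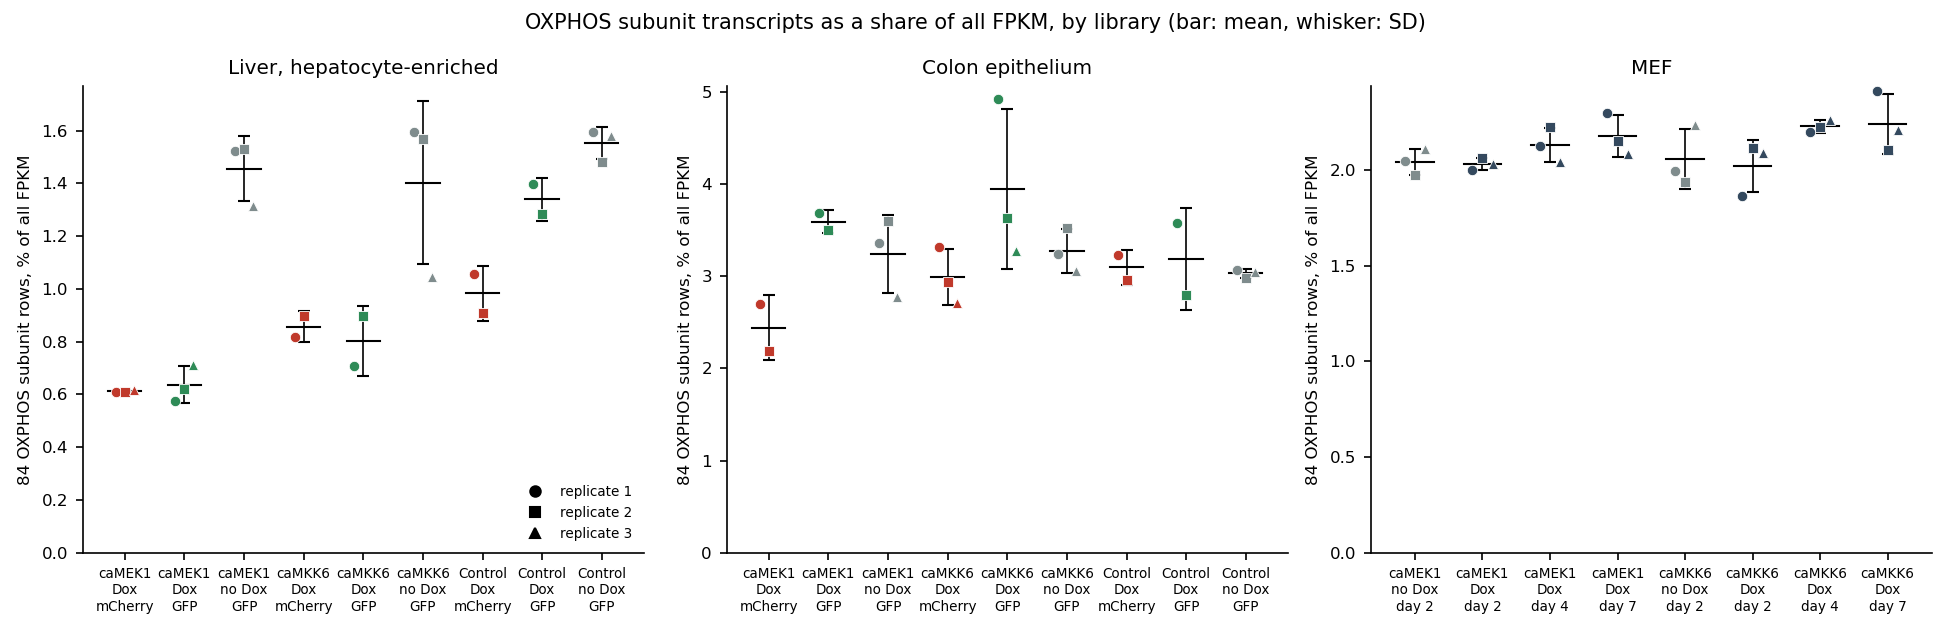
Share of all FPKM (percent) held by the 84 rows in each library of liver, colon and MEF (left to right), with groups along the horizontal axis, points for libraries (the marker gives the replicate), a bar for the mean and a whisker for the SD. The caMEK1 Dox libraries of liver sit between 0.574% and 0.712%, below every No Dox liver library, and 1 caMKK6 Dox GFP colon library stands at 4.92%.

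Summed over members, the respiratory chain took less of the liver transcriptome on Dox with either kinase. The 84 rows held 0.612 ± 0.00402% of all FPKM (mean ± SD, n = 3) in caMEK1 Dox mCherry cells and 0.636 ± 0.0701% in caMEK1 Dox GFP cells, against 1.46 ± 0.122% in caMEK1 No Dox GFP cells. In caMKK6 liver the share was 0.857 ± 0.0576% (n = 2) in mCherry and 0.803 ± 0.132% (n = 2) in GFP cells on Dox, against 1.40 ± 0.309% (n = 3) in No Dox GFP cells. Control liver held 0.983 ± 0.104% (n = 2) in mCherry and 1.34 ± 0.0812% (n = 2) in GFP cells on Dox, against 1.55 ± 0.0612% (n = 3) in No Dox GFP cells. In these bulk libraries, fewer cells of a type and less RNA per cell cannot be told apart. An FPKM share also moves with the most abundant genes: the top 10 genes held 41.7 to 45.8% of FPKM in caMEK1 Dox mCherry and 39.1 to 44.7% in caMEK1 Dox GFP libraries, against 27.01 to 29.6% in caMEK1 No Dox GFP libraries, and the part of this in the result was not tested beyond the scalings given below.

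Liver GFP cells around caMEK1 cells had lower RNA of nearly every subunit. On Dox, 74 of 77 tested members fell against No Dox GFP cells and none rose, where 32.0% of all genes tested fell and 6.46% rose. The median member stood at -1.21 (log2) and the median gene at -0.25, and for 75 members all 3 Dox libraries lay below all 3 No Dox libraries. After quantile normalization 38 fell and 1 rose. Every tested subunit of the core of complex I (7 of 7, median -1.18), its accessory part (28 of 28, -1.20), complex II (4 of 4, -1.41), complex III (8 of 8, -1.21), broadly expressed complex IV (11 of 11, -1.21) and F1 (5 of 5, -1.28) fell. So did 10 of 11 Fo or stalk subunits (-1.21) and 1 of 3 tissue-restricted complex IV genes (-0.15).

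Sdha had the largest fall. This catalytic subunit of complex II, shared with the citric acid cycle, was listed at 35.8, 35.4 and 49.6 FPKM in caMEK1 Dox GFP libraries, against 133, 134 and 114 FPKM in No Dox GFP libraries. The groups did not overlap (log2 fold change -1.65 ± 0.23, adjusted p = 6.36e-05, limma). Sdhb, its iron-sulfur partner, was listed at 19.7, 22.1 and 32.5 FPKM on Dox and 75.6, 81.4 and 62.1 FPKM without it (-1.54 ± 0.23, adjusted p = 9.91e-05, limma). The highest Dox library for Sdhb was well under the lowest No Dox library.

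In complex I the largest fall was that of Ndufa5, an accessory subunit of the matrix arm, with 11.3, 8.57 and 12.1 FPKM in caMEK1 Dox GFP libraries and 39.5, 34.9 and 27.6 FPKM in No Dox GFP libraries (-1.58 ± 0.20, adjusted p = 2.47e-05, limma). The core iron-sulfur subunit Ndufs1 was listed at 5.58, 5.17 and 7.80 FPKM on Dox, against 15.8, 17.9 and 15.5 FPKM (-1.29 ± 0.21, adjusted p = 0.000237, limma). Neither gene had overlapping groups. In complex III the core protein Uqcrc1 was listed at 14.6, 17.5 and 22.7 FPKM on Dox and 51.8, 61.9 and 48.8 FPKM without it (-1.53 ± 0.19, adjusted p = 2e-05, limma). In complex IV, Cox4i1, a regulatory subunit and common loading control for mitochondria, was listed at 73.9, 89.8 and 99.1 FPKM on Dox, against 211, 187 and 179.8 FPKM (-1.14 ± 0.16, adjusted p = 7.05e-05, limma). Both were lower in every Dox library than in any No Dox library.

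For the ATP synthase, the catalytic F1 subunit Atp5b was listed at 87.5, 94.4 and 130.3 FPKM in caMEK1 Dox GFP libraries, against 274, 295 and 253 FPKM in No Dox libraries (-1.41 ± 0.19, adjusted p = 4.71e-05, limma). Atp5k, the small membrane subunit e that helps the synthase form dimers, was listed at 14.4, 21.9 and 13.7 FPKM on Dox and 71.2, 42.2 and 42.2 FPKM without it (-1.57 ± 0.29, adjusted p = 0.000631, limma). Both pairs of groups were separate. The 3 members not called were Cox7a2l, Cox6b2, which was below 1 FPKM on average in both groups, and Atp5md, a membrane subunit of the synthase (-0.79 ± 0.36, adjusted p = 0.0904, limma). Cox7a2l was listed at 19.3, 21.9 and 22.5 FPKM on Dox and 22.7, 24.3 and 23.7 FPKM without it (-0.15 ± 0.18, adjusted p = 0.537, limma), with the Dox libraries just under the No Dox libraries.

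The same comparison in caMKK6 liver gave lower values for most subunits, with more spread. On Dox, 61 of 77 members fell and none rose in GFP cells, where 13.8% of all genes fell and 5.21% rose. The median member was at -0.86 and the median gene at -0.07. After quantile normalization 31 fell and 1 rose. All 4 complex II and all 11 broadly expressed complex IV subunits fell, with 6 of 7 core and 22 of 28 accessory complex I subunits, 6 of 8 of complex III, 4 of 5 of F1 and 8 of 11 of Fo. Sdha was listed at 34.6 and 62.4 FPKM in caMKK6 Dox GFP libraries, against 132, 134 and 104 FPKM in No Dox GFP libraries (-1.38 ± 0.25, adjusted p = 0.00225, limma). Atp5k was listed at 17.3 and 21.5 FPKM on Dox and 90.3, 72.8 and 34.9 FPKM without it (-1.62 ± 0.33, adjusted p = 0.00387, limma). The groups were separate for both, with No Dox replicate 3 the lowest of its group. Ndufb3, a membrane-arm accessory subunit of complex I, averaged 15.6 ± 7.07 FPKM on Dox and 40.4 ± 8.25 FPKM without it (-1.37 ± 0.25, adjusted p = 0.00205, limma). Ndufa13, also known as the cell-death protein GRIM-19, was listed at 25.96 and 57.1 FPKM on Dox and 109, 105 and 85.7 FPKM without it (-1.34 ± 0.26, adjusted p = 0.00336, limma). Single libraries decide the count: 2 members were called without caMKK6 Dox GFP replicate 1 and 39 without No Dox GFP replicate 1.

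**Figure D2:**
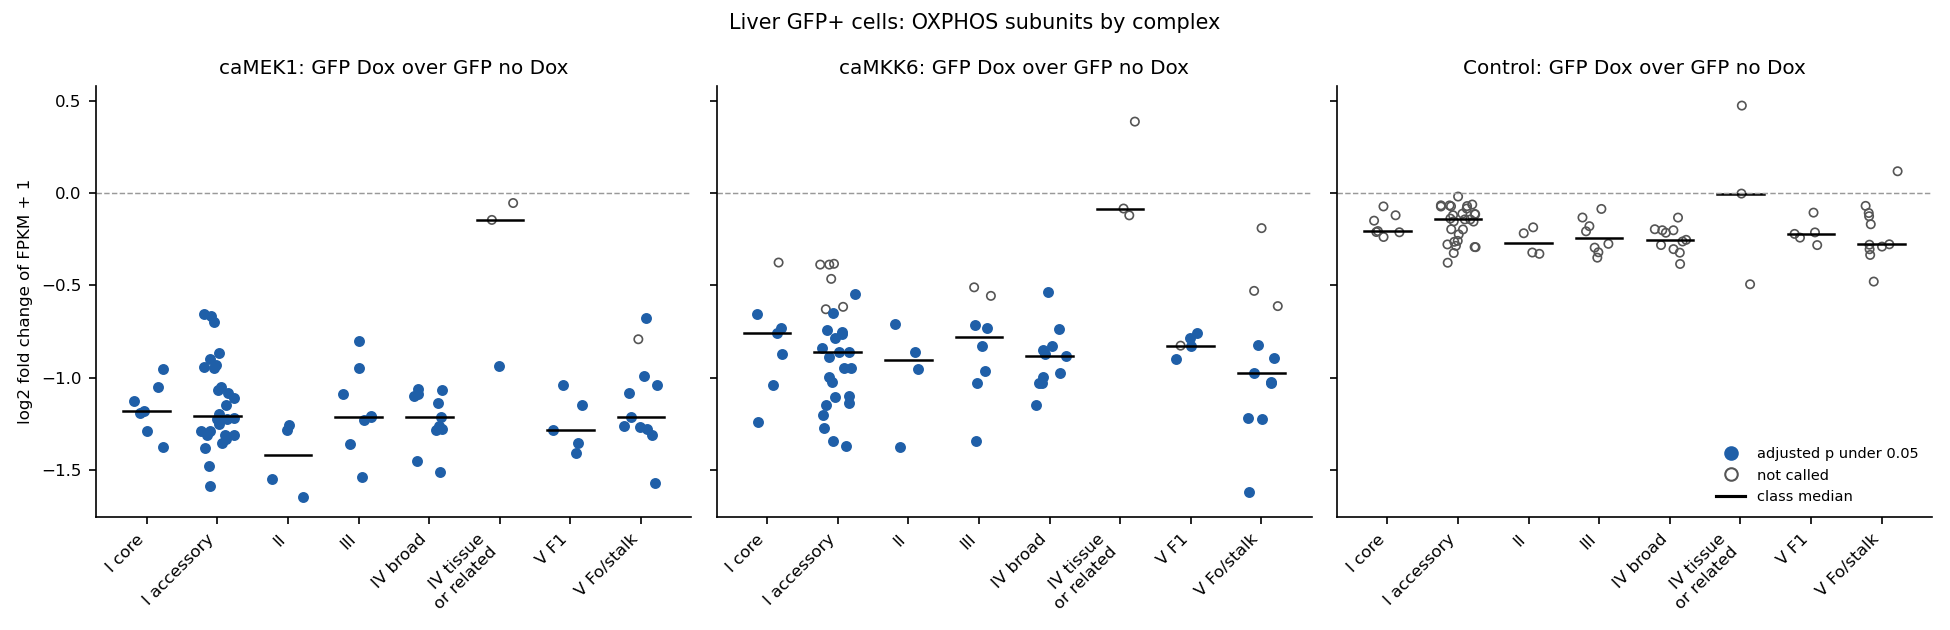
Log2 fold change on the log2(FPKM + 1) scale (vertical axis) of each tested member in liver GFP cells, Dox over No Dox, by complex (horizontal axis), for caMEK1, caMKK6 and Control (panels left to right). Filled blue points had an adjusted p below 0.05 by limma, open points did not, and black lines are class medians: 74, 61 and 0 members were called.

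Control animals bear on Dox itself. In Control liver GFP cells no member was called on Dox against No Dox by limma (1 higher and none lower at an unadjusted p under 0.05, none called by voom on reads recovered from the FPKM steps), where 0.0868% of all genes were called. Their values leaned the same way at a smaller size, with 75 of 77 below 0 and a median of -0.21. The difference itself was tested in a comparison added after the values were seen. The Dox change of 43 of 77 members was lower in caMEK1 than in Control GFP cells, where 8.75% of all genes were lower and 1.04% higher, with medians of -0.98 for members and -0.30 for genes. All 4 complex II subunits were among the 43, with Sdha at -1.32 ± 0.34 (adjusted p = 0.0252, limma), as was Cox7a2, a complex IV subunit at the contact with complex III, at -1.31 ± 0.27 (adjusted p = 0.0105, limma). For caMKK6 minus Control the only call was Uqcr11, a small complex III subunit, at -1.21 ± 0.29 (adjusted p = 0.0477, limma), where 0.887% of all genes were lower and 0.270% higher, with 43 members lower at an unadjusted p under 0.05. None of these difference calls was made after equal medians or quantile normalization. Without Control Dox GFP replicate 1 none was made for caMEK1, without replicate 2 of that group 2 were, and 9 of 11 fits without 1 library gave 20 or fewer for caMEK1, while caMKK6 had 27 without caMKK6 Dox GFP replicate 2, 5 without caMKK6 No Dox GFP replicate 3 and none in the other 8.

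No difference between the 2 kinases was called in liver GFP cells. For the Dox change in caMEK1 minus caMKK6, no member was called by limma or by voom, with 5 lower and none higher at an unadjusted p under 0.05 by limma, where 0.357% of all genes were called. The median difference was -0.33, from -0.85 to 0.44 over the members.

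The libraries labelled mCherry from caMEK1 Dox liver, which list little MEK1 and mCherry and are called caMEK1 mCherry cells here by their label alone, were set against Control Dox mCherry cells. Of 77 members 45 fell and 1 rose, where 16.3% of all genes fell and 10.7% rose, with medians of -0.68 for members and -0.04 for genes. After quantile normalization 21 fell and 2 rose. All 11 broadly expressed complex IV subunits fell, as did 18 of 28 accessory and 4 of 7 core complex I subunits, 2 of 4 of complex II, 3 of 8 of complex III, 2 of 5 of F1 and 4 of 11 of Fo. Cox6a1, a non-catalytic complex IV subunit, was listed at 69.4, 92.7 and 84.9 FPKM in caMEK1 and 242 and 207 FPKM in Control mCherry cells (-1.44 ± 0.24, adjusted p = 0.000324, limma). Sdha was listed at 29.9, 27.9 and 39.1 FPKM in caMEK1 and 107 and 87.6 FPKM in Control cells (-1.57 ± 0.25, adjusted p = 0.000227, limma). Neither had overlapping groups.

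caMKK6 mCherry liver cells had 21 members lower and 1 higher than Control mCherry cells, where 9.29% of all genes were lower and 28.9% higher. The median member stood at -0.39 while the median gene stood at 0.25. After the gene medians were made equal, 49 members were lower and 1 higher. The lower ones included 10 of 28 accessory subunits of complex I and 4 of 11 broadly expressed complex IV subunits, and none of F1. Ndufa13 was listed at 22.6 and 41.4 FPKM in caMKK6 and 81.7 and 82.8 FPKM in Control mCherry cells (-1.40 ± 0.29, adjusted p = 0.00184, limma), and Uqcr11 at 49.8 and 46.9 FPKM in caMKK6 and 109 and 97.9 FPKM in Control cells (-1.08 ± 0.22, adjusted p = 0.00175, limma). Both were lower in both caMKK6 libraries. Cox4i1 did not move with them, at 160.0 and 147 FPKM in caMKK6 and 151 and 144 FPKM in Control cells (0.06 ± 0.19, adjusted p = 0.856, limma).

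Cox7a2l was the 1 member that rose in mCherry liver cells of both kinases. It was listed at 29.2, 38.7 and 21.7 FPKM in caMEK1 and 39.7 and 40.6 FPKM in caMKK6 cells, against 15.9 and 14.2 FPKM in Control mCherry cells. Both kinase groups lay wholly above the shared Control group (caMEK1 0.91 ± 0.20, adjusted p = 0.00242; caMKK6 1.36 ± 0.22, adjusted p = 0.000263, limma). Control Dox GFP cells held 23.6 and 23.5 FPKM, above Control mCherry cells and within the range of caMEK1 mCherry cells, and 17.8% of the gene's 50-base words occur in other transcripts.

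The Control mCherry group itself was low, and these counts rest on it. In Control liver no member was called between mCherry and GFP cells on Dox by limma (1 higher and 32 lower at an unadjusted p under 0.05, none by voom), where 0.106% of all genes were called, yet both mCherry libraries lay below both GFP libraries for 72 of 77 members. Against Control Dox GFP cells instead, 72 members were lower in caMEK1 mCherry cells, and 61 lower and 1 higher in caMKK6 mCherry cells. These counts have no share of all genes beside them, so they cannot be set against a background. The Control Dox GFP libraries also listed mCherry at 678 and 749.6 FPKM beside EGFP at 70.2 and 72.1 FPKM. Without Control Dox mCherry replicate 1, 16 members were called for caMEK1 and 7 for caMKK6, without replicate 2 of that group 26 and 8, and without caMKK6 Dox mCherry replicate 1, 9 for caMKK6.

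Between the kinases, mCherry liver cells of caMEK1 had 13 members lower and none higher than those of caMKK6, where 27.2% of all genes were lower and 4.52% higher. Here the members followed the bulk of genes, with medians of -0.29 for members and -0.31 for genes, and after equal medians 1 member, and after quantile normalization 3, were higher and none lower. On the FPKM scale, Cox4i1 was listed at 83.5, 103 and 85.5 FPKM in caMEK1 and 160.0 and 147 FPKM in caMKK6 mCherry cells (-0.76 ± 0.18, adjusted p = 0.00421, limma), and Cox6a1 at 69.4, 92.7 and 84.9 FPKM in caMEK1 and 171 and 138 FPKM in caMKK6 cells (-0.90 ± 0.24, adjusted p = 0.00963, limma). Their groups were separate, and 2 members were called without caMKK6 Dox mCherry replicate 2 and 5 without caMEK1 Dox mCherry replicate 1.

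Within animals, mCherry and GFP liver cells were close. No member was called in caMEK1 (median -0.11, 2 higher and 3 lower at an unadjusted p under 0.05) or in caMKK6 liver (median -0.01, 2 higher and none lower) by limma, and none by voom, where 4.71% and 4.28% of all genes were called. With the animal as a block, 1 member was called in each: the c-ring gene Atp5g1, lower in caMEK1 mCherry than in GFP cells (-0.46 ± 0.12, adjusted p = 0.0411), and Ndufs4, an accessory complex I subunit, higher in caMKK6 mCherry than in GFP cells (0.60 ± 0.13, adjusted p = 0.0282, limma). Ndufs4 was named after its values were seen. Leaving out single libraries gave 0 or 1 call, with 1 without caMEK1 Dox mCherry replicate 3, and 1 without either caMKK6 Dox GFP library or caMKK6 Dox mCherry replicate 1.

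**Figure D3:**
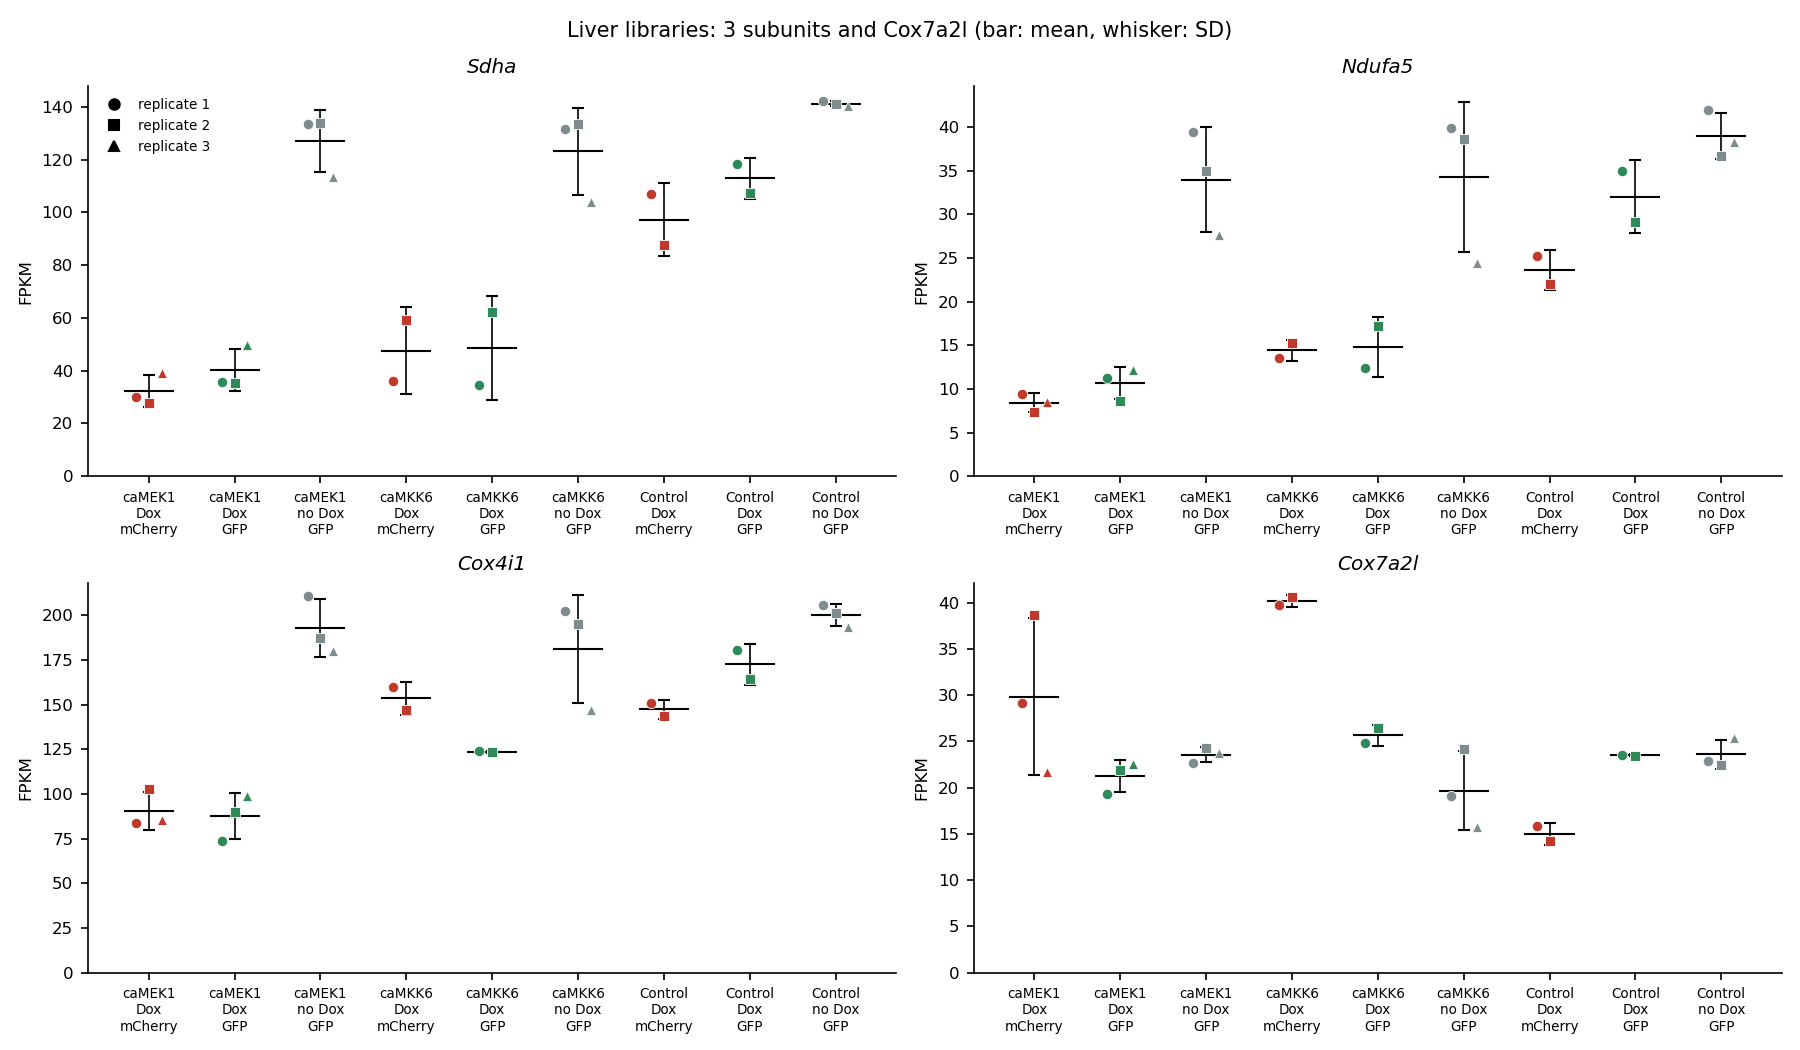
FPKM (vertical axes) of Sdha, Ndufa5, Cox4i1 and Cox7a2l in every liver library, by group (horizontal axes), with points for libraries and bars for group means. Sdha is at 27.9 to 62.4 FPKM in all kinase Dox libraries and at 87.6 FPKM or more in all Control and No Dox libraries, while Cox7a2l is highest in the mCherry libraries of caMKK6.

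Related gene lists were followed beside the members in liver. On Dox, 32.0% of all genes fell in caMEK1 GFP cells and 13.8% in caMKK6 GFP cells. Against Control mCherry cells, 16.3% of all genes were lower and 10.7% higher with caMEK1, and 9.29% lower and 28.9% higher with caMKK6. In caMEK1 GFP cells on Dox, all 7 tested mitochondrially encoded subunits fell (median -1.12), with 16 of 17 citric acid cycle genes (-1.19), 37 of 39 mitochondrial ribosomal proteins (-0.72) and 36 of 46 assembly factors of the complexes (-0.69). None of the 34 tested proteins of the cytosolic large ribosomal subunit was called (median 0.00). In caMKK6 GFP cells 4 of 7 mitochondrially encoded subunits, 7 of 17 cycle genes, 16 of 39 mitochondrial ribosomal proteins and 18 of 46 assembly factors fell. In caMEK1 mCherry cells against Control mCherry cells, 7 of 7 mitochondrially encoded subunits fell (median -1.71) while 24 of 34 large ribosomal subunit genes rose (median 1.01). The caMKK6 mCherry cells had 7 of 7 mitochondrially encoded subunits lower and 23 of 34 ribosomal genes higher.

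Listed regulators of mitochondrial gene expression were set beside the members in liver GFP cells, Dox against No Dox. In caMEK1 GFP cells, where 32.0% of all genes fell, 3 of 12 listed regulators fell, a share below that of all genes. These were Gabpa, an ETS subunit, at -0.61 ± 0.13 (adjusted p = 0.00146), Yy1 at -0.65 ± 0.16 (adjusted p = 0.00381) and Polrmt, the mitochondrial RNA polymerase, at -0.57 ± 0.17 (adjusted p = 0.0123, limma). In caMKK6 GFP cells, where 5.21% of all genes rose and 13.8% fell, 1 of 12 rose and 1 fell: the coactivator Ppargc1a rose by 1.51 ± 0.43 (adjusted p = 0.0225) and the mitochondrial transcription factor Tfb2m fell, at -0.57 ± 0.17 (adjusted p = 0.0281, limma).

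A few markers of other cells were called in the caMEK1 GFP libraries, though the immune and endothelial sums overlapped between Dox and No Dox. Their part in the result was not tested. Of all genes, 6.46% rose and 32.0% fell on Dox with caMEK1, and 5.21% rose and 13.8% fell with caMKK6. Immune markers (9 genes) summed to 16.8 to 172 FPKM in caMEK1 Dox GFP libraries, against 10.5 to 19.1 FPKM in No Dox GFP libraries, with 1 of 6 tested genes, the neutrophil gene S100a8, called higher and Cd3e, Cd79a, Itgam and Ptprc below 1 FPKM on average in both groups. Endothelial markers (5 genes) summed to 23.9 to 173 FPKM on Dox and 22.6 to 38.4 FPKM without it, with 1 of 5, Pecam1, called higher. In caMKK6 GFP libraries immune markers summed to 12.8 to 77.4 FPKM on Dox and 4.86 to 45.5 FPKM without it, with none called. Erythroid markers summed to 1.46 to 2.88 FPKM on Dox and 44.6 to 71.1 FPKM without it in caMEK1 GFP cells. The sum without Dox was nearly all Alas2, the erythroid heme synthesis gene and the 1 called lower of 2 tested, while each of the 4 globin genes listed was below 1 FPKM on average in both groups. The 9 hepatocyte markers summed to 72630.2 to 85513 FPKM on Dox and 51434 to 61996 FPKM without it in caMEK1 GFP cells, but to 31838 to 39157 FPKM on Dox and 53137 to 55561 FPKM without it in caMKK6 GFP cells.

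In colon the GFP cells did not show the liver pattern. No member was called between Dox and No Dox GFP cells in caMEK1 (median 0.24, 8 higher and none lower at an unadjusted p under 0.05), in caMKK6 (0.38, 23 higher and 1 lower) or in Control colon (0.01, none) by limma, and voom called 0, 0 and 0. Over all genes 1.33%, 2.60% and 0.00% were called, and without caMKK6 Dox GFP replicate 3 there were 2 calls in caMKK6. The values leaned upward in 71 of 78 members in caMEK1 and 73 of 78 in caMKK6 colon. The tissue difference was tested in comparisons added after the values were seen, on a joint fit of liver and colon. Some animal numbers occur in both tissues, and this fit did not pair them. In liver the Dox change of GFP cells was lower than in colon for 69 of 78 members in caMEK1, where 15.1% of all genes were lower and 4.37% higher. It was lower for 58 of 78 members in caMKK6, where 9.25% of all genes were lower and 5.08% higher. No member was higher in either. After quantile normalization 21 were lower in caMEK1 and 24 in caMKK6. The largest of these differences with a level of 5 FPKM or more was that of Ndufa6, an accessory subunit of complex I, at -1.98 ± 0.53 (adjusted p = 0.00848) for caMEK1 and that of Uqcr11 at -1.84 ± 0.32 (adjusted p = 0.000264, limma) for caMKK6. Without liver caMKK6 Dox GFP replicate 1 the caMKK6 count was 17.

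Primary senescent mCherry cells of colon had lower values than GFP cells for most members. The GFP cells of both kinases leaned upward on Dox against No Dox, as given above, and the part of this was not tested. How many were called depended on whether the animal was taken as a block. The shares of all genes given for mCherry against GFP cells are from the fit without that block. Counts with the block or after another scaling have no share of all genes beside them. In caMEK1 colon, 10 of 78 members were lower and none higher in mCherry than in GFP cells of the same animals, where 7.72% of all genes were lower and 5.71% higher. Medians were -0.65 for members and -0.13 for genes, 77 members had a value below 0, and both mCherry libraries lay below both GFP libraries for 76. With the animal as a block 47 were lower, after quantile normalization 34 and after equal medians 3, while 1 was without caMEK1 Dox GFP replicate 1, 3 without GFP replicate 2 and 1 without mCherry replicate 2. The 10 were 3 of 7 core and 4 of 28 accessory subunits of complex I, 1 of 4 of complex II and 2 of 12 of Fo.

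Ndufs5, an accessory subunit of complex I in the intermembrane space, had the largest called difference, at 2.83 and 2.88 FPKM in caMEK1 mCherry and 13.5 and 13.5 FPKM in caMEK1 GFP colon cells (-1.91 ± 0.40, adjusted p = 0.00338, limma). The same gene stood at 6.54 and 6.19 FPKM in Control mCherry and 10.2 and 6.84 FPKM in Control GFP cells on Dox. The caMEK1 mCherry pair was thus the lowest of these groups and the caMEK1 GFP pair the highest, so both sides contribute to the difference. Of the gene's 50-base words, 21.7% are shared with other transcripts. Ndufa5 was listed at 33.7 and 28.5 FPKM in caMEK1 mCherry and 63.9 and 63.3 FPKM in caMEK1 GFP cells (-1.01 ± 0.25, adjusted p = 0.00974, limma), and Sdha at 79.6 and 61.6 FPKM in mCherry and 116 and 109 FPKM in GFP cells (-0.67 ± 0.16, adjusted p = 0.00983, limma). Neither gene had overlapping groups.

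Against Control mCherry colon cells, caMEK1 mCherry cells had 6 of 78 members lower and none higher, where 12.0% of all genes were lower and 9.54% higher, a share below the background. The count depends on the scaling, with 26 lower after quantile normalization and 2 after equal medians. The core subunit Ndufs1 was listed at 12.5 and 12.2 FPKM in caMEK1 and 23.1 and 22.03 FPKM in Control mCherry cells (-0.82 ± 0.15, adjusted p = 0.000703, limma). Ndufa12, an accessory subunit of the matrix arm, averaged 23.7 ± 4.21 FPKM in caMEK1 and 40.1 ± 0.258 FPKM in Control cells (-0.75 ± 0.24, adjusted p = 0.0326, limma). Both were separate between the groups, and both were also lower in caMEK1 than in caMKK6 mCherry cells (Ndufs1 -0.64 ± 0.13, adjusted p = 0.00261; Ndufa12 -0.74 ± 0.22, adjusted p = 0.0223, limma), the only 2 calls there (9 after quantile normalization and 1 after equal medians), where 12.1% of all genes were lower and 8.56% higher. Of members against Control, 2 were called without Control Dox mCherry replicate 1, 1 without its replicate 2 and 1 without caMEK1 Dox mCherry replicate 2, and the kinase comparison gave 1 call without caMEK1 Dox mCherry replicate 2 or without caMKK6 Dox mCherry replicate 1.

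In caMKK6 colon, 22 of 78 members were lower and none higher in mCherry than in GFP cells of the same animals, where 13.1% of all genes were lower and 8.24% higher. Medians were -0.50 for members and -0.04 for genes. The 22 held 12 of 28 accessory and 2 of 7 core subunits of complex I, 3 of 4 of complex II, 1 of complex IV, 1 of F1 and 3 of Fo. Ndufv2, a core iron-sulfur subunit, averaged 60.9 ± 12.1 FPKM in caMKK6 mCherry and 124 ± 46.2 FPKM in caMKK6 GFP cells (-0.97 ± 0.20, adjusted p = 0.00263, limma). The groups were separate, and GFP replicate 1, which stood apart at 4.92% of FPKM in members, was the highest. Ndufs5 was listed at 8.61, 4.53 and 3.02 FPKM in mCherry and 20.1, 10.9 and 6.83 FPKM in GFP cells (-1.07 ± 0.32, adjusted p = 0.0255, limma), with overlapping groups but lower mCherry values in each animal. With the animal as a block 40 members were lower, a count with no share of all genes beside it, and after equal gene medians 7. Without GFP replicate 1, mCherry replicate 2 or mCherry replicate 3 the count was 5, 4 or 2.

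Other comparisons in colon gave no call. Control mCherry and GFP cells had none (none at an unadjusted p under 0.05, none by voom), where 0.0866% of all genes were called. Between caMKK6 and Control mCherry cells none of the 78 members was called by limma (1 higher and 2 lower at an unadjusted p under 0.05, 0 by voom, 1 by limma without caMKK6 Dox mCherry replicate 1, and 4, all lower, after quantile normalization), where 20.8% of all genes were called. Colon epithelium markers summed to 17865 to 19384 FPKM in caMEK1 mCherry and 9425 to 10082 FPKM in caMEK1 GFP cells, and to 11992 to 15036 FPKM in caMKK6 mCherry and 7593 to 11016 FPKM in caMKK6 GFP cells. Their part in the falls was not tested.

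**Figure D4:**
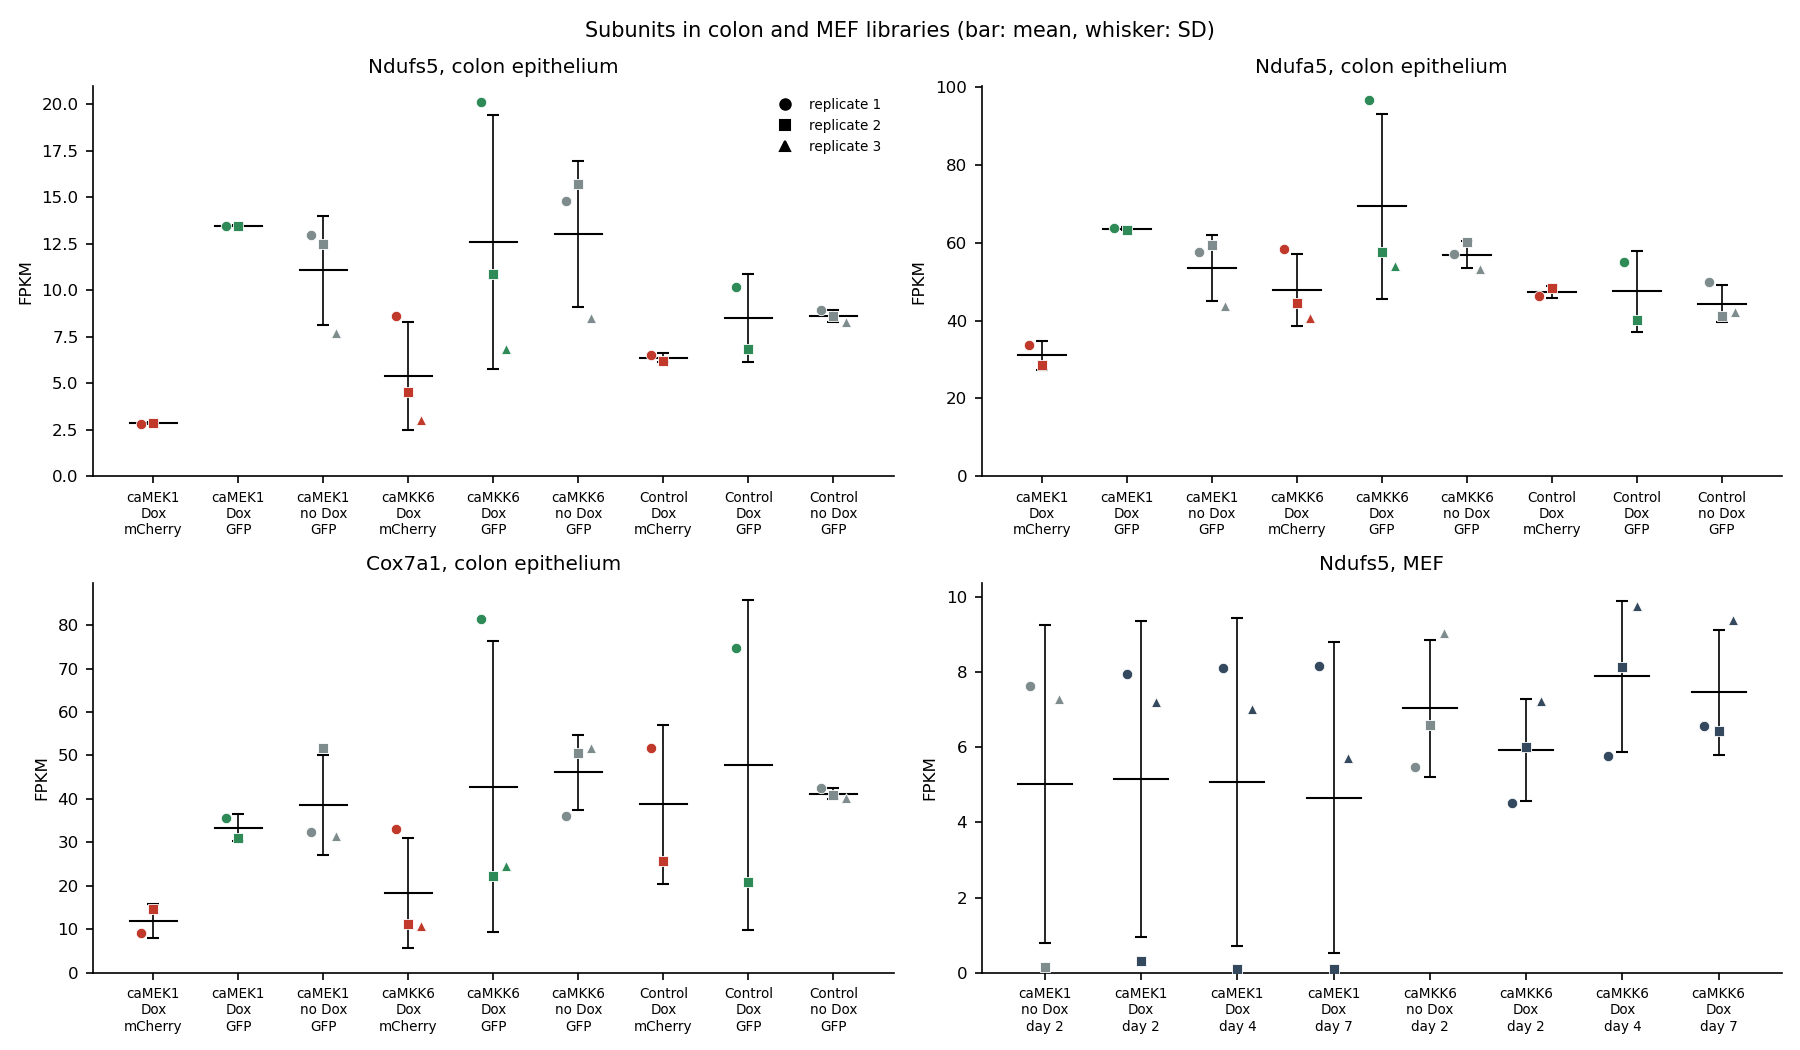
FPKM (vertical axes) in every library, by group (horizontal axes), of Ndufs5, Ndufa5 and Cox7a1 in colon and of Ndufs5 in MEF, with points for libraries and bars for group means. Ndufs5 is at 2.83 and 2.88 FPKM in caMEK1 mCherry and near 13.5 FPKM in caMEK1 GFP colon libraries, and near 0 in 4 MEF libraries, those of caMEK1 replicate 2.

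In MEF some subunits rose and others fell. At day 7 of Dox, 25 of 77 members rose and 9 fell in caMEK1 cells, where 33.4% of all genes rose and 28.7% fell, with medians of 0.14 for members and 0.03 for genes, so the share that rose is near the background and the share that fell is below it. In caMKK6 cells 20 rose and 4 fell, where 16.8% of all genes rose and 40.8% were called in either direction, with medians of 0.10 for members and -0.04 for genes. Here too the share that fell is below that of all genes. Of broadly expressed complex IV subunits, 7 of 11 rose with caMEK1 (median 0.31) and 7 of 11 with caMKK6 (0.32), and none fell. Fo and stalk subunits rose in 5 of 11 cases with caMEK1 and in 3 of 11 with caMKK6, and none fell. The core of complex I had 1 rise and 2 falls with caMEK1 and no call with caMKK6, and F1 had 1 rise and 2 falls with caMEK1. Under equal gene medians the caMEK1 split was 18 higher and 13 lower, and 12 caMKK6 members, all higher, were called without the 5 libraries that list the other transgene, and 11 without No Dox replicate 2 alone.

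Ndufa6, an accessory complex I subunit, had the largest rise with caMEK1. It was listed at 21.4, 22.1 and 20.8 FPKM at day 2, 32.9, 34.1 and 26.96 FPKM at day 4 and 41.1, 38.2 and 30.5 FPKM at day 7 of Dox, against 19.8, 18.8 and 21.9 FPKM without Dox (day 7 0.82 ± 0.12, adjusted p = 1.01e-05, limma). Days 4 and 7 lay wholly above the No Dox group. Uqcrh, the hinge protein of complex III, was listed at 118, 123 and 115 FPKM at day 2, 157, 173 and 141 FPKM at day 4 and 188, 165 and 144 FPKM at day 7, against 93.2, 89.5 and 100.1 FPKM without Dox (day 7 0.80 ± 0.13, adjusted p = 2.56e-05, limma). It was above the No Dox group at each time. The small membrane subunits Atp5mpl and Atp5md of the ATP synthase rose too, by 0.75 ± 0.15 (adjusted p = 0.000171) and 0.75 ± 0.15 (adjusted p = 0.000282, limma).

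Several core subunits fell in the same caMEK1 cells, where falls were less frequent among members than among all genes. Sdha was listed at 56.2, 58.7 and 58.4 FPKM at day 2, 45.1, 44.7 and 47.6 FPKM at day 4 and 41.9, 47.5 and 50.3 FPKM at day 7 of Dox, against 57.4, 61.2 and 59.4 FPKM without it (day 7 -0.35 ± 0.07, adjusted p = 0.000166, limma). Uqcrc1 was listed at 55.3, 54.7 and 55.3 FPKM at day 2, 51.04, 46.1 and 46.8 FPKM at day 4 and 46.7, 42.8 and 49.6 FPKM at day 7, against 59.3, 64.1 and 63.3 FPKM (day 7 -0.42 ± 0.06, adjusted p = 4.72e-06, limma). Both lay below the No Dox group at days 4 and 7. Atp5b, at 316, 306 and 345 FPKM at day 7 and 399, 393 and 405 FPKM without Dox, also fell (-0.31 ± 0.06, adjusted p = 0.000276, limma), as did Ndufs1 (-0.33 ± 0.07, adjusted p = 0.000223, limma). The largest fall was that of Ndufa5, at 25.2, 22.4 and 21.3 FPKM at day 7 and 32.4, 32.5 and 33.1 FPKM without Dox (-0.49 ± 0.11, adjusted p = 0.000811, limma).

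With caMKK6 the largest rises were those of Ndufa1, a small membrane subunit needed for complex I assembly, and Ndufa7, an accessory subunit of its matrix arm. Ndufa1 was listed at 83.7, 104 and 97.9 FPKM at day 2, 145, 145 and 136 FPKM at day 4 and 144, 136 and 120.2 FPKM at day 7 of Dox, against 89.2, 72.1 and 89.6 FPKM without Dox (day 7 0.67 ± 0.10, adjusted p = 2.8e-05, limma). Days 4 and 7 lay above the No Dox group. Ndufa4 was listed at 119, 167 and 158 FPKM at day 2, 202, 199.7 and 195 FPKM at day 4 and 209, 179 and 183 FPKM at day 7, against 118, 104 and 158 FPKM (day 7 0.60 ± 0.14, adjusted p = 0.00255, limma), and Ndufa7 rose at day 7 by 0.61 ± 0.14 (adjusted p = 0.00129, limma). Falls at day 7 were small and comprised Ndufa9, Ndufa10 and Ndufa12 of complex I, between -0.26 and -0.21, and Uqcrc1 at -0.17 ± 0.06 (adjusted p = 0.0239, limma).

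Earlier times held fewer rises. At day 2, 4 members rose and 6 fell with caMEK1, where 19.5% of all genes rose and 19.8% fell, and 2 rose and 13 fell with caMKK6, where 14.3% rose and 24.8% fell. Each of these day 2 counts is below the background. By day 4, 20 rose and 9 fell with caMEK1, where 28.5% and 29.3% of genes did, and 18 rose and 5 fell with caMKK6, where 17.1% and 27.7% did. Of the day 4 counts only the caMKK6 rises lay above the background. At day 2 the caMKK6 falls took 4 of 7 core and 5 of 28 accessory subunits of complex I, with Ndufv2 at -0.52 ± 0.13 (adjusted p = 0.00338, limma). Under equal gene medians the caMKK6 split was 6 higher and 6 lower at day 2 and 32 higher and 1 lower at day 4. Leaving out any 1 of the 6 libraries gave 3 to 6 caMEK1 calls at day 2, and leaving out caMKK6 Dox day 2 replicate 2 gave 9 caMKK6 calls at day 2.

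Cox6b2, a complex IV isoform best known from testis, had its own course. With caMEK1 it was listed at 3.08, 3.11 and 3.62 FPKM at day 2, 7.77, 9.05 and 6.35 FPKM at day 4 and 15.9, 15.2 and 11.7 FPKM at day 7 of Dox, against 6.77, 7.61 and 10.6 FPKM without Dox (day 2 -1.11 ± 0.24, adjusted p = 0.00106; day 7 0.72 ± 0.24, adjusted p = 0.0144, limma). It was below the No Dox group at day 2 and above it at day 7. With caMKK6 it was listed at 1.40, 1.23 and 2.17 FPKM at day 2, 3.07, 1.98 and 4.44 FPKM at day 4 and 5.15, 4.12 and 8.35 FPKM at day 7, against 6.65, 3.70 and 6.89 FPKM without Dox (day 2 -1.35 ± 0.24, adjusted p = 0.000275, limma). Only day 2 lay wholly below the No Dox group.

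The kinases differed little at day 7 in MEF. The day 7 change in caMEK1 minus that in caMKK6 was called for 7 of 77 members, 3 higher and 4 lower, where 23.3% of all genes were higher and 14.5% lower, so these counts are below the background. The higher ones were Atp5k (0.66 ± 0.20, adjusted p = 0.0127), Ndufs7, a core iron-sulfur subunit (0.31 ± 0.11, adjusted p = 0.0316), and Ndufa12 (0.31 ± 0.11, adjusted p = 0.0269, limma). The lower ones were Cox6a1 (-0.40 ± 0.11, adjusted p = 0.00776), Atp5b (-0.37 ± 0.09, adjusted p = 0.00277), Sdha (-0.26 ± 0.09, adjusted p = 0.0399) and Uqcrc1 (-0.24 ± 0.08, adjusted p = 0.0274, limma). Under equal gene medians 1 was higher and 13 lower, and leaving out 1 library gave 3 to 11 calls: 3 without caMEK1 No Dox replicate 2, 4 without caMEK1 Dox day 7 replicate 1 and 11 without caMKK6 No Dox replicate 2.

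Members that rose in MEF had shorter transcripts than members that fell. With caMEK1 at day 7, the median main transcript was 611 bases for the 24 risers with a known length and 1968 bases for the 8 fallers, and with caMKK6 it was 610 bases for 19 risers and 1653 bases for 3 fallers. Across the 74 members with a length, Spearman's rho between log2 fold change and length was -0.52 with caMEK1 and -0.50 with caMKK6, against 0.0095 and -0.10 across 8471 genes. These points share libraries and the No Dox groups, and the correlation is a description across genes, which are not independent replicates. In caMEK1 liver GFP cells rho was -0.18 over 74 members.

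**Figure D5:**
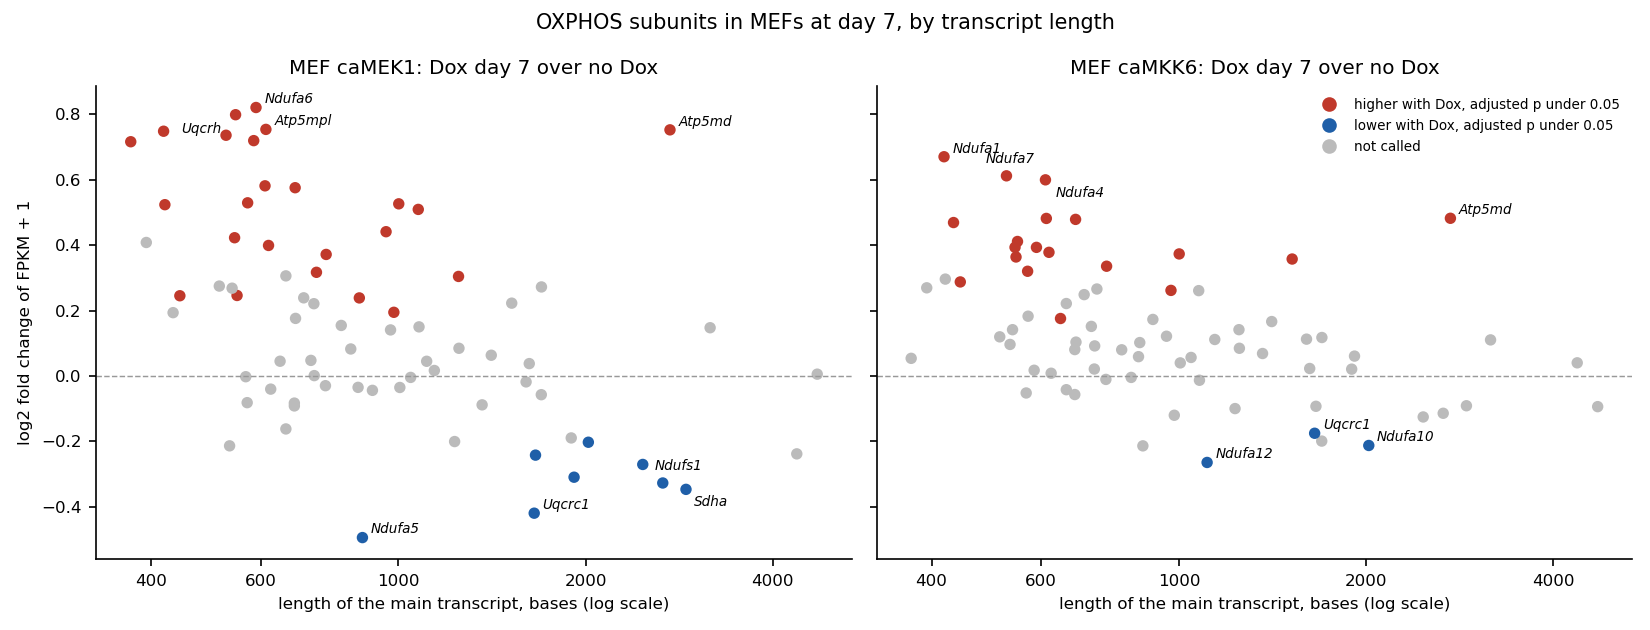
Log2 fold change at day 7 of Dox over No Dox in MEF (vertical axes, log2(FPKM + 1) scale) against the length of each member's main transcript in bases (horizontal log axes), for caMEK1 and caMKK6. Red points rose, blue points fell (adjusted p below 0.05, limma) and grey points were not called: the risers sit mostly to the left, with median lengths of 611 and 610 bases.

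Companion lists in MEF at day 7 were read against the 33.4% of all genes that rose and 28.7% that fell with caMEK1, and the 16.8% that rose of 40.8% called with caMKK6. Mitochondrially encoded subunits rose in 4 of 7 cases with caMEK1 (median 0.40) and in 6 of 7 with caMKK6 (median 0.71). Citric acid cycle genes rose in 2 and fell in 10 of 17 cases with caMEK1, and rose in 0 and fell in 5 with caMKK6. Mitochondrial ribosomal proteins rose in 4 and fell in 11 of 40 cases with caMEK1, and rose in 0 and fell in 8 with caMKK6, shares of falls no higher than those of all genes. Proliferation genes fell in 16 of 16 cases with each kinase (medians -1.85 with caMEK1 and -1.42 with caMKK6), and the part of this in the members' changes was not tested.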

How the data were processed

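The authors' deposited values are FPKM, 1 column per library, in 1 table of the whole series. Per the submitters' processing notes, reads were trimmed with cutadapt 1.12 and aligned to mm10 with STAR 2; the counter, its annotation and its use of strand are not given in the sources used here. The labels' protocols give 100 ng of total RNA per MEF library and 50 ng per sorted library.

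Groups came from the labels. Members and companion lists were chosen with earlier results of these data known. Within each tissue, limma 3.58.1 in R 4.3.3, with a mean-variance trend in eBayes, was run on log2(FPKM + 1). A gene entered where 3 MEF libraries, or 2 libraries of liver or colon, reached 1 FPKM (3 in the untreated fit, 2 in the joint fit), giving 11347, 10371 and 11542 genes with 16, 14 and 14 residual degrees of freedom. Adjusted p-values (Benjamini-Hochberg, two-sided, called below 0.05) are over all genes tested and not across comparisons. The deposited column names mark MEF replicates with the letters ex and a number, which the labels do not explain. Nothing in the labels says that MEF replicates came from separate cultures, so their p-values may measure technical spread. The fit was tested on simulated data.

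The FPKM steps, divided by GENCODE vM21 exon lengths, gave whole reads (within 0.02) for 100% of values under 1000 reads; voom on these recovered reads was an alternative and called 34 members at day 7 in caMEK1 MEF and 74 in caMEK1 liver GFP cells. Other alternatives were a pseudocount of 0.1, no filter, equal medians, quantile normalization, a replicate block, another comparator and leaving out each library. Same-numbered MEF libraries of a genotype deviated together (r from 0.11 to 0.80 over 36 pairs), as did both colours of an animal (0.40 to 0.82), so the numbers were taken as pairs in the replicate block. The main fit had no such block. Some animal numbers of a genotype occur in both liver and colon, and the labels do not say whether these are the same animals. The untreated and joint fits of both tissues did not pair them. Named members are the sentinels of each complex and, per comparison, up to 4 called rises and 4 called falls with at least 5 FPKM in the higher group. Promoters came from RefSeq (GRCm38.p6). Figures used Python 3.11.15 and matplotlib 3.10.9.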

Additional observations from a re-analysis of the deposited data

Results flagged for a closer look

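Each result here is listed because the same Dox contrast differed between 2 settings by a direct test of the difference (limma). In liver GFP cells the Dox change of 43 of 77 members was lower in caMEK1 than in Control animals, where 8.75% of all genes were lower; leaving out 1 library gave 0 to 43. That of 1 member, Uqcr11, was lower in caMKK6 than in Control animals, where 0.887% of all genes were lower, so this single call is near the background. After equal medians or quantile normalization neither kinase had any called difference from Control. Between tissues, the Dox change of GFP cells was lower in liver than in colon for 69 of 78 members in caMEK1 animals, where 15.1% of all genes were lower, and for 58 in caMKK6 animals, where 9.25% were. After quantile normalization these counts were 21 and 24. In MEF the day 7 change of 7 of 77 members differed between caMEK1 and caMKK6, where 23.3% of all genes were higher and 14.5% lower, so this count is below the background. Groups of 2 or 3 libraries were too small for a test of single libraries that stand apart.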

How the results depend on the processing

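Of the recomputed counts of called members, 324 stayed within 1.5 times the count reported, 85 moved further and 10 changed which direction led. No member named as one of the largest called rises or falls of a comparison changed sign. The sign of other values given in the text, such as those of members not called, was not followed in these recomputations. A pseudocount of 0.1, no filter and voom moved no count that far. Reversals of the leading direction: with quantile normalization, caMEK1 MEF day 2 had 13 (7 higher, 6 lower) and the day 7 kinase difference 10 (6, 4); day 2 without Dox replicate 1 had 5 and without No Dox replicate 3 had 3; the kinase difference without caMEK1 No Dox replicate 3 had 5, without caMKK6 Dox day 7 replicate 1 had 8 and without caMKK6 No Dox replicate 2 had 11; caMEK1 against caMKK6 liver mCherry cells had 1 after equal medians and 3 after quantile normalization; untreated liver against colon had 66 (61, 5) after equal medians.

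Equal medians gave 14 for the MEF kinase difference (1, 13), 50 for caMKK6 mCherry liver against Control, 2 and 1 for caMEK1 mCherry colon against Control and caMKK6, 3 and 7 for colon mCherry against GFP (caMEK1, caMKK6), and 0 for both liver differences against Control. They moved the median of all genes by over 0.1, for example to -0.04 after equal medians, against -0.25 in FPKM, in caMEK1 liver GFP cells, where 69 members still fell (median -0.92). Quantile normalization gave 23 for caMEK1 mCherry liver against Control, 39 and 32 for the GFP change in caMEK1 and caMKK6 liver, 26 and 4 for caMEK1 and caMKK6 mCherry colon against Control, 9 between kinases in colon mCherry cells, 34 for caMEK1 colon mCherry against GFP, 0 for both liver differences against Control, and 21 and 24 for liver minus colon. With Control Dox GFP cells as comparator, mCherry counts were 72 and 62 in liver and 10 and 4 in colon (caMEK1, caMKK6), with no share of all genes beside them. The replicate block gave 47 and 40 in colon and 1 and 1 in liver for mCherry against GFP (caMEK1, caMKK6), and changed no other count by over 1.5 times. Without caMEK1 liver animal 3, mCherry against GFP had 1. Without the MEF libraries listing the other transgene, caMKK6 No Dox replicate 1 is alone in its group. The counts of that fit are not given.

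Leaving out 1 library gave 3 to 6, 21 to 29 and 24 to 36 calls at days 2, 4 and 7 in caMEK1 MEF, 9 to 17, 16 to 28 and 11 to 24 in caMKK6 MEF, and 3 to 11 for their difference. In liver the ranges were 16 to 44 and 7 to 20 for caMEK1 and caMKK6 mCherry against Control, 2 to 11 between kinases, 0 to 1 for mCherry against GFP with either kinase, 70 to 73 and 2 to 68 for the caMEK1 and caMKK6 GFP change, and 0 to 43 and 0 to 27 for their difference from Control. In colon they were 1 to 6 and 0 to 1 against Control, 1 to 3 between kinases, 1 to 12 and 2 to 32 against GFP, and 0 to 2 for the caMKK6 GFP change. Liver minus colon had 56 to 72 and 17 to 70, and untreated liver against colon 72 to 73. The cause of these moves was not tested. Where 1 library of a group of 2 was left out, the lone library is assumed to vary like the other groups.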

Other observations

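Ndufs5 was nearly missing from 1 set of MEF libraries, whatever the treatment; this gene was singled out after its values were seen. The 4 caMEK1 replicate 2 libraries listed it at 0.0863 to 0.308 FPKM (1 to 4 recovered reads), in No Dox as in Dox cells at days 2, 4 and 7, against 4.52 to 9.75 FPKM (45 to 135 reads) in the other 20 MEF libraries. Among all genes averaging at least 5 FPKM in the other libraries, it was the only one lying 8-fold or more outside all of them in any of the 6 sets of same-numbered libraries of a genotype. In its MEF groups Ndufs5 was listed at 8.16, 0.0970 and 5.70 FPKM at day 7 and 7.63, 0.139 and 7.28 FPKM without Dox in caMEK1 cells, and at 6.56, 6.44 and 9.37 FPKM at day 7 and 5.47, 6.58 and 9.04 FPKM without Dox in caMKK6 cells.

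Cox7a1 varied between colon libraries more than most members. It was listed at 9.11 and 14.6 FPKM in caMEK1 Dox mCherry, 35.5 and 31.1 FPKM in caMEK1 Dox GFP, 33.01, 11.1 and 10.8 FPKM in caMKK6 Dox mCherry, 81.4, 22.3 and 24.6 FPKM in caMKK6 Dox GFP, 51.6 and 25.8 FPKM in Control Dox mCherry and 74.7 and 20.9 FPKM in Control Dox GFP libraries. Replicate 1 was far the highest in the last 4 of these groups. Against Control mCherry cells its value in caMEK1 mCherry cells was -1.58 ± 0.60 (adjusted p = 0.0657, limma), short of the threshold.

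In the mitochondrial genome, the 3 caMEK1 Dox mCherry liver libraries held 3.09 to 4.71% of all FPKM and the 3 caMEK1 Dox GFP libraries 3.33 to 6.55%, against 8.60 to 10.2% in caMEK1 No Dox GFP libraries.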
